A study of Mus musculus with 6 samples.

Results

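Genes of the spliceosome and of splicing regulation were examined in RNA of kidney ECs from mice with and without endothelial Rbpj deletion. The members were all rows of the deposited count table whose symbol belongs to 1 of 12 families: SR proteins (Srsf), TRA2, CLK kinases, hnRNPs, LUC7-like, U2AF, SF3, PRPF, U snRNP specific (Snrnp), Sm and U snRNP core (Snrp), CELF and MBNL. This rule gave 91 of the 55401 listed genes. The filter on low counts kept 88 of them among the 18438 genes tested, and Celf3, Celf6 and Srsf12 did not pass it. Both groups were 21wk old, of a B6 mouse line that joins the transgene Tg(Cdh5(PAC)-cre/ERT2)1Rha with the allele Rbpsuh tm3Hon/Rbrc, and carried 2 floxed Rbpj alleles (Rbpjf/f). All mice received 5 intraperitoneal doses of 1.5 mg tamoxifen at 8 weeks of age, and organs were taken 12 weeks later, so that the labelled age at harvest is somewhat above the sum of the labelled times. The 3 CTRL samples came from Cre-negative littermates (Cre -/-; Rbpjf/f), while the mice of the 3 RbpjDEC samples (Cre +/-; Rbpjf/f) carried CreERT2, a tamoxifen-dependent recombinase driven by the endothelial Cdh5 promoter. Rbpj encodes the DNA-binding factor of canonical Notch signalling. CD31+CD45- cells were sorted, so that the RNA is that of the whole EC population of the kidney, and a change in the share of an EC subtype cannot be told apart from a change in RNA per cell.

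Splicing removes introns from pre-mRNA. The U1 snRNP recognises the 5' splice site, U2AF and the U2 snRNP with its SF3 subunits recognise the 3' splice site and the branch point, and the U4/U6.U5 tri-snRNP then joins to form the catalytic spliceosome. SR and TRA2 proteins bind exonic enhancers and favour the use of nearby splice sites, CLK kinases phosphorylate SR proteins, and hnRNPs often act as repressors. Many SR, TRA2 and hnRNP genes produce, beside the coding mRNA, transcripts with a retained intron or an exon that leads to nonsense-mediated decay (NMD), and through these they limit their own protein.

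Total counts on genes lay between 39649171 and 47726850 per library, so that 3 counts, taken as the floor, correspond to 0.0634 to 0.0749 CPM (counts scaled by library size and TMM factor). CTRL 1 had at least 1 count in 33764 genes, the other 5 libraries in 25629 to 26785. Endothelial markers were abundant, with Kdr, a VEGF receptor, at 4924 to 6261 CPM, whereas the T cell marker Cd3e had no count in any library. Rbpj itself was at 28.1, 29.7 and 29.8 CPM in CTRL and at 28.9, 26.1 and 29.6 CPM in RbpjDEC (edgeR log2 fold change -0.05, adjusted p = 0.793). A count over the whole gene includes exons outside the floxed part and does not check the deletion, and the groups rest here on the labels. The paper reports recombination of the Rbpj locus in this line, and lower Hey1 and Jag1 in mutant kidney ECs.

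The promoter windows of 4 members are shown to place members beside the DNA that flanks their start: Srsf2 and Hnrnpa1, which passed the threshold, Tra2b, which holds an RBPJ motif, and Snrpd3, a core gene with a lower value in RbpjDEC. The windows run from 250 bases before to 50 bases after the start of the gene, 5' to 3' on the gene's strand, and were taken from RefSeq on GRCm38.p6. Capitals mark TGGGAA (the RBPJ core), TGACG (a part of the cAMP response element, CRE) and CCAAT, each on either strand.
Srsf2 (chr11:116853045-116853344, minus strand): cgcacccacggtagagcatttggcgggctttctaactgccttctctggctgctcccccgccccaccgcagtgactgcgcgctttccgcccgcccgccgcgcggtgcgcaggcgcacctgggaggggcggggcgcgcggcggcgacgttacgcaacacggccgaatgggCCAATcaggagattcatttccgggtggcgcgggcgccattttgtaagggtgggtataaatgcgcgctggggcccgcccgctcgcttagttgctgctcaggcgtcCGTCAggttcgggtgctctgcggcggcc
Hnrnpa1 (chr15:103240147-103240446, plus strand): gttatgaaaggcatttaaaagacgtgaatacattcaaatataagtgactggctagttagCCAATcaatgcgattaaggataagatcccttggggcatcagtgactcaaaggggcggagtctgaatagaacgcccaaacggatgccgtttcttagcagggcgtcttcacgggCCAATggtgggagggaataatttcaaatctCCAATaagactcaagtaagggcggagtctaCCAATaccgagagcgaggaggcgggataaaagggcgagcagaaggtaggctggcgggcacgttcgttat
Tra2b (chr16:22265956-22266255, minus strand): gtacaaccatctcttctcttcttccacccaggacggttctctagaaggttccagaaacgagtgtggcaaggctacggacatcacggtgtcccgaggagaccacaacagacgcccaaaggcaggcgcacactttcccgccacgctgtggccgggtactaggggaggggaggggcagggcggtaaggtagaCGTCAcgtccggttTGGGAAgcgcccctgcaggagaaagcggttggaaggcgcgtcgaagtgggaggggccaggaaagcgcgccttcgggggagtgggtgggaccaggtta
Snrpd3 (chr10:75517792-75518091, plus strand): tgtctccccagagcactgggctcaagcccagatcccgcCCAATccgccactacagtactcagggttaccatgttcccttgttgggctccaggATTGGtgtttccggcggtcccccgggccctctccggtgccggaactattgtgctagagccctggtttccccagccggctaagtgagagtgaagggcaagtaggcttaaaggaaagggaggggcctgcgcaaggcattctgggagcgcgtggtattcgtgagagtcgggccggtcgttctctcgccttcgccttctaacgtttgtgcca
Srsf2 has 1 TGACG, read on the opposite strand as CGTCA, and 1 CCAAT. Hnrnpa1 has 4 CCAAT and neither of the other motifs, Tra2b has 1 TGGGAA and 1 TGACG, and Snrpd3 has 2 CCAAT. The 4 windows thus share no single motif of these.

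Splicing members made up 1.04, 1.16 and 1.07% of all counts in CTRL and 1.26, 1.23 and 1.22% in RbpjDEC. Every RbpjDEC library lay above every CTRL library, and CTRL 2 lay nearest to the RbpjDEC libraries. With edgeR's quasi-likelihood test and Benjamini-Hochberg adjustment over all tested genes, 2 members rose, Srsf2 and Hnrnpa1, and 0 fell. The background is 0.575% of all tested genes called higher and 0.559% called lower, against 2.27% and 0% of the members. At an unadjusted p under 0.05, 27 members (30.7%) were higher and 4 (4.55%) were lower, beside 8.88% and 8.62% of all tested genes. The 3 RbpjDEC values lay wholly above the 3 CTRL values for 24 members (27.3%) and wholly below for 9 (10.2%), beside 11.4% and 11.6% of all tested genes. The excess over the background was therefore in the higher direction. The median log2 fold change over the 88 tested members was 0.02, beside 0.0072 over all tested genes, so that members with a higher and a lower value were nearly balanced (48 positive and 40 negative).

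The number called depended on the tool and on single libraries. DESeq2 on the same genes called 14 members higher and 1 lower, Mbnl3. Without CTRL 2, edgeR called 19 members higher, and without RbpjDEC 3 it called 5. No member was called without CTRL 1, CTRL 3, RbpjDEC 1 or RbpjDEC 2, and at an unadjusted p under 0.05 between 20 and 28 members were higher in each of these 6 fits.

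**Figure D1:**
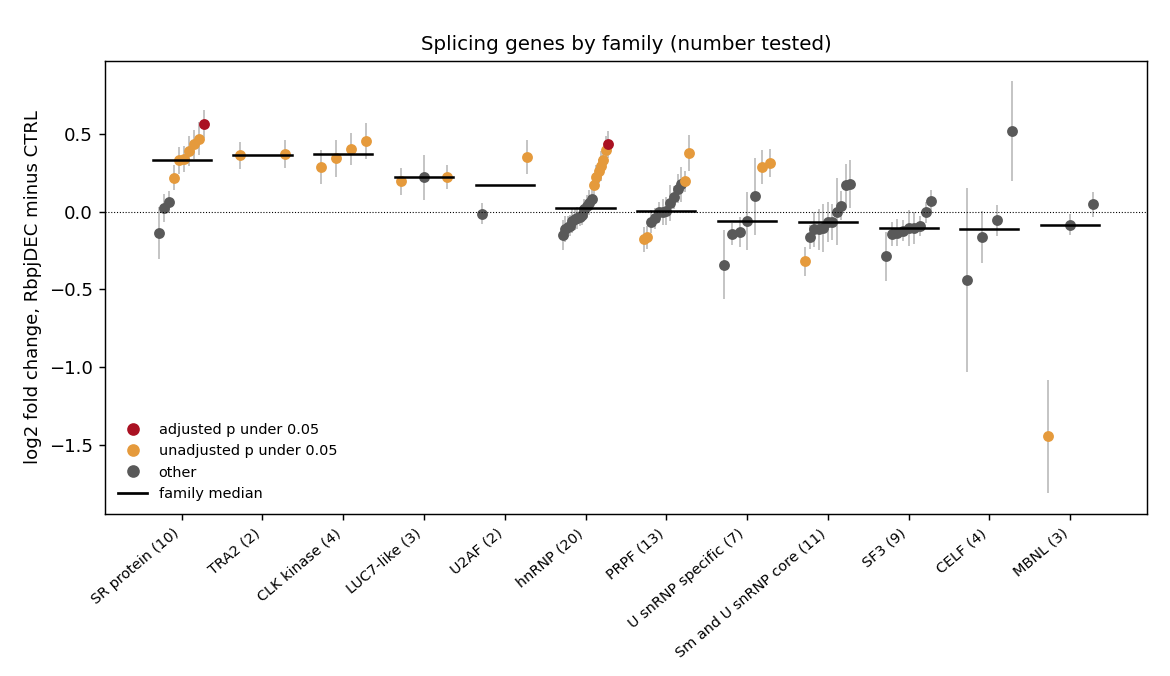
Log2 fold change (RbpjDEC minus CTRL, edgeR) of the 88 tested members by family, with the standard error as a grey bar and the family median as a black line. The SR, TRA2 and CLK medians lie between 0.34 and 0.37, while the SF3 median is -0.10 and the Sm and U snRNP core median is -0.07.

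The family medians had different signs. Among SR proteins, 9 of the 10 tested genes had a positive log2 fold change, with a median of 0.34, and 7 were higher at an unadjusted p under 0.05. Both TRA2 genes (median 0.37) and all 4 CLK genes (median 0.37) were higher at that level. Of these 16 genes together, 13 were higher and 0 lower by the unadjusted p, but 1, Srsf2, passed the adjusted threshold in edgeR. DESeq2 on the same tested genes called 10 of the 16 higher. The summed level of the 3 families was 2232 ± 304 CPM in CTRL and 2918 ± 55.1 CPM in RbpjDEC (SD, n = 3), a 1.31-fold ratio. The 9 SF3 genes and the 11 Sm and U snRNP core genes had a joint median of -0.10 on the log2 scale, with 15 of 20 negative, 0 higher and 1 lower by the unadjusted p, and no edgeR or DESeq2 call in either direction. The shares by the unadjusted p were 81.2% higher for the SR, TRA2 and CLK genes and 5% lower for the SF3, Sm and U snRNP core genes, beside 8.88% higher and 8.62% lower over all tested genes. The summed level of the SF3, Sm and U snRNP core genes was 1349 ± 17.5 CPM in CTRL and 1310 ± 33.6 CPM in RbpjDEC. The difference between the families was not itself tested.

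Srsf2 encodes an SR protein (SC35) that binds exonic enhancers. It was at 151, 196 and 172 CPM in CTRL and at 246, 273 and 248 CPM in RbpjDEC, with no overlap between the groups. The log2 fold change was 0.56 ± 0.09 (SE, edgeR adjusted p = 0.0197), the largest rise among the tested members. Srsf2 (ENSMUSG00000034120.18) lies on the minus strand of chr11:116849901-116853094 (GRCm38) and shares 748 exonic bases with Mfsd11 and Mettl23 on the opposite strand. Mfsd11 (log2 fold change 0.05, edgeR adjusted p = 0.824) and Mettl23 (0.07, edgeR adjusted p = 0.864) did not pass the test. Whether the counting used the strand is not given in the sources used here.

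Other SR genes had values close to the threshold. Srsf3, the smallest SR protein and an adaptor for mRNA export, was at 166, 221 and 188 CPM in CTRL and at 255, 265 and 256 CPM in RbpjDEC (log2 fold change 0.43 ± 0.09, edgeR adjusted p = 0.0529). Srsf5 was at 306, 414 and 361 CPM against 542, 472 and 486 CPM (0.47 ± 0.10, edgeR adjusted p = 0.0602). In both genes each RbpjDEC library exceeded each CTRL library, and CTRL 2 was the highest CTRL library. Srsf7, which like Srsf3 links splicing to export, was at 140, 183 and 146 CPM against 204, 207 and 203 CPM (0.39 ± 0.09, edgeR adjusted p = 0.0738). Srsf6 went from 123 ± 13.7 to 156 ± 8.15 CPM (SD, n = 3, edgeR adjusted p = 0.0791), and Srsf10, a repressor of splicing in its dephosphorylated form, from 59.8 ± 5.66 to 75.3 ± 5.27 CPM (adjusted p = 0.0859). The groups did not overlap in these genes or in Srsf11 (log2 fold change 0.22, edgeR adjusted p = 0.181), and they overlapped in Srsf4, Srsf9 and Srsf1. Srsf1, the best studied SR protein, was low at 9.78 ± 2.10 CPM in CTRL and 8.90 ± 1.07 CPM in RbpjDEC (log2 fold change -0.14 ± 0.17, edgeR adjusted p = 0.717). Srsf12 was at 0 to 0.12 CPM.

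Tra2a and Tra2b, SR-like proteins that activate exons through purine-rich enhancers, had nearly the same difference. Tra2a was at 121, 146 and 116 CPM in CTRL and at 171, 157 and 163 CPM in RbpjDEC (log2 fold change 0.36 ± 0.09, edgeR adjusted p = 0.0731). Tra2b was at 134, 175 and 144 CPM against 191, 195 and 200 CPM (0.37 ± 0.09, edgeR adjusted p = 0.0788). Neither pair of groups overlapped. Among the kinases of SR proteins, Clk1 was at 299, 418 and 306 CPM in CTRL and at 477, 461 and 464 CPM in RbpjDEC (0.45 ± 0.12, edgeR adjusted p = 0.0940). Clk4 was at 56.7, 76.2 and 58.5 CPM against 83.0, 84.0 and 86.2 CPM (0.40 ± 0.10, edgeR adjusted p = 0.0884). In all 4 kinases CTRL 2 was the highest control and the RbpjDEC libraries lay close together, as in Clk1 with an SD of 8.42 CPM in RbpjDEC beside 66.7 CPM in CTRL. Clk2 (0.34, edgeR adjusted p = 0.177) did not overlap between the groups, while in Clk3 (0.29, edgeR adjusted p = 0.204) CTRL 2 lay above RbpjDEC 3.

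**Figure D2:**
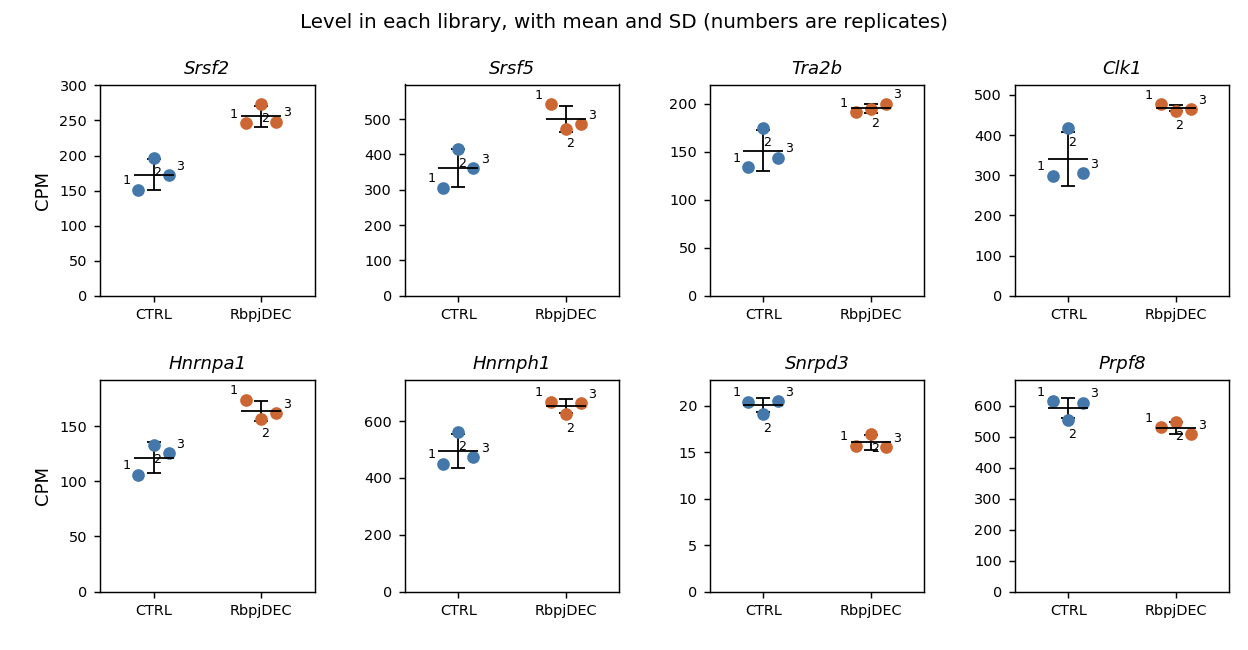
Level of 8 members in each library in CPM (axes start at 0), with mean and SD as a bar and the replicate number beside each point. The 3 RbpjDEC libraries lie above the 3 CTRL libraries for Srsf2, Srsf5, Tra2b, Clk1, Hnrnpa1 and Hnrnph1 and below them for Snrpd3 and Prpf8.

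The hnRNP family was split. Of 20 tested genes, 11 had a positive and 9 a negative log2 fold change (median 0.03), and by the unadjusted p 7 (35%) were higher and 0 lower, beside 8.88% and 8.62% of all tested genes. Hnrnpa1, which binds exonic and intronic silencers, was at 106, 133 and 126 CPM in CTRL and at 174, 156 and 162 CPM in RbpjDEC. It rose by a log2 fold change of 0.43 ± 0.09 (edgeR adjusted p = 0.0419) without overlap between the groups. Hnrnpa1 (ENSMUSG00000046434.16, chr15:103240432-103246692 on GRCm38) has many processed copies in the genome, and how reads matching several places were counted is not given in the sources used here. Hnrnph1, which binds G runs, was at 450, 563 and 473 CPM against 669, 625 and 664 CPM (0.40 ± 0.09, edgeR adjusted p = 0.0550). Hnrnpdl was at 136, 152 and 155 CPM against 203, 180 and 174 CPM (0.33 ± 0.08, edgeR adjusted p = 0.0704). Both were without overlap, as was Hnrnpa2b1, the most abundant member by CPM, at 615 ± 90.3 CPM in CTRL and 754 ± 13.2 CPM in RbpjDEC (0.29 ± 0.10, edgeR adjusted p = 0.145). Close relatives had values nearer 0: Hnrnpa0 (-0.11), Hnrnpa3 (0.02), Hnrnph2 (-0.15) and Hnrnph3 (0.08) had overlapping groups and edgeR adjusted p-values between 0.45 and 0.910. The same held for Hnrnpk, Hnrnpm, Hnrnpu and Hnrnpc, abundant hnRNPs with log2 fold changes between -0.09 and -0.02.

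**Figure D3:**
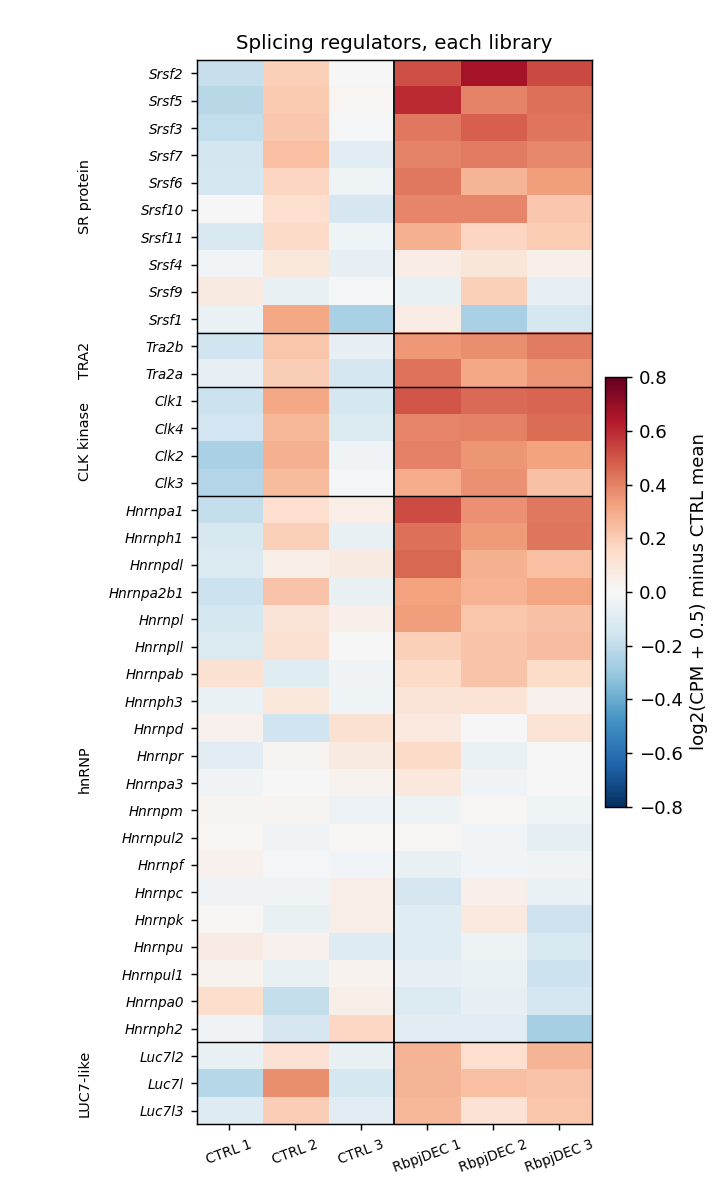
Each tested SR, TRA2, CLK, hnRNP and LUC7-like gene in each library, as log2(CPM + 0.5) minus the CTRL mean (red is higher, blue is lower). CTRL 2 is the highest of the CTRL libraries in 15 of the 16 SR, TRA2 and CLK genes, and the lower part of the hnRNP block shows no shift between the groups.

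Components acting at the 5' splice site were on the higher side. The U1 snRNP proteins and their partners (9 genes) reached a median of 0.20 on the log2 scale, with 8 of 9 positive and 4 (44.4%) higher by the unadjusted p, beside 8.88% of all tested genes. In 2 of the 9 (22.2%) the RbpjDEC libraries lay wholly above the CTRL libraries, beside 11.4% of all tested genes. Snrnp70, the U1-70K protein, was at 144, 177 and 152 CPM in CTRL and at 216, 186 and 185 CPM in RbpjDEC (0.31 ± 0.09, edgeR adjusted p = 0.115). Prpf39 was at 73.6, 97.9 and 78.0 CPM against 113, 94.4 and 117 CPM (0.38 ± 0.12, edgeR adjusted p = 0.140), with CTRL 2 inside the RbpjDEC range. Luc7l2, which binds U1 and shapes 5' splice site choice, was at 224, 253 and 224 CPM against 282, 256 and 282 CPM (0.23 ± 0.08, edgeR adjusted p = 0.154). None of the 9 passed the adjusted edgeR threshold, and DESeq2 called Prpf39. The other proteins specific to U1, Snrpa (log2 fold change 0.04) and Snrpc (0.17), had overlapping groups.

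At the 3' splice site, both U2AF subunits were measured. U2af1, which reads the AG at the intron end, was at 25.1, 28.9 and 23.6 CPM in CTRL and at 37.5, 30.7 and 30.6 CPM in RbpjDEC (0.35 ± 0.11, edgeR adjusted p = 0.133), without overlap. U2af2, which binds the polypyrimidine tract, was at 116 ± 4.23 and 115 ± 1.20 CPM (log2 fold change -0.01 ± 0.06, edgeR adjusted p = 0.949). Of the 9 SF3 genes, 8 had a negative log2 fold change, from Sf3b5 with -0.29 ± 0.16 (edgeR adjusted p = 0.369) upwards, and none passed an unadjusted p of 0.05. Sf3b1, which holds the branch point, was the exception with 382 ± 26.5 and 401 ± 3.49 CPM (0.07 ± 0.07, edgeR adjusted p = 0.646).

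The median of the 8 tri-snRNP genes was -0.03 on the log2 scale, with 3 positive and 5 negative, and that of the 7 Sm ring genes -0.10, with 2 positive and 5 negative. In each group 1 gene was lower and 0 higher by the unadjusted p, Prpf8 and Snrpd3, and edgeR made no call. These shares, 12.5% and 14.3%, rest on 1 gene each and are near the 8.62% lower over all tested genes. Among the tri-snRNP genes, Prpf3, Prpf4, Prpf6 and Prpf31 had overlapping groups and log2 fold changes near 0, Prpf4 with 0.05 lying farthest from it. Prpf8, the scaffold of the catalytic centre, was at 615, 555 and 611 CPM in CTRL and at 531, 548 and 509 CPM in RbpjDEC (-0.17 ± 0.07, edgeR adjusted p = 0.258). Snrnp200, the helicase that unwinds U4 from U6, was at 354, 336 and 346 CPM against 300, 333 and 304 CPM (-0.14 ± 0.07, edgeR adjusted p = 0.313). In both genes the groups did not overlap, with RbpjDEC the lower, as in 11.6% of all tested genes. Prpf19, the ubiquitin ligase of the activated spliceosome, was at 60.3 ± 4.34 and 53.3 ± 2.21 CPM (-0.18 ± 0.08, edgeR adjusted p = 0.262). Of the 7 Sm ring genes, Snrpd3 was at 20.4, 19.1 and 20.5 CPM in CTRL and at 15.7, 16.9 and 15.5 CPM in RbpjDEC (-0.32 ± 0.09, edgeR adjusted p = 0.116). The other 6 overlapped between the groups, among them Snrpb (-0.16, edgeR adjusted p = 0.303) and Snrpd2 (0.18, edgeR adjusted p = 0.587). The 3 proteins of the minor spliceosome went both ways, with Snrnp48 at 0.29 (edgeR adjusted p = 0.197), Snrnp25 at 0.10 (0.868) and Snrnp35 at -0.34 (0.458).

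MBNL and CELF proteins are antagonistic regulators of developmental splicing. Mbnl3 was the member with the lowest log2 fold change, at 2.37, 1.54 and 1.30 CPM in CTRL and at 0.47, 0.62 and 0.82 CPM in RbpjDEC (-1.45 ± 0.36, edgeR adjusted p = 0.0798). The groups did not overlap, but the level is low beside Mbnl1 (360 ± 7.74 and 340 ± 10.2 CPM, -0.08, edgeR adjusted p = 0.548) and Mbnl2 (301 ± 20.2 and 311 ± 25.7 CPM, 0.05, edgeR adjusted p = 0.792), which make up nearly all MBNL counts. DESeq2 called Mbnl3 lower on the genes that passed the filter and did not call it on all genes with a count. Celf1 (19.6 ± 0.31 and 18.9 ± 1.58 CPM) was the main CELF gene and had overlapping groups (-0.06, edgeR adjusted p = 0.803). Celf4 (0.52 ± 0.32, edgeR adjusted p = 0.431) and Celf5 (-0.44 ± 0.59, edgeR adjusted p = 0.743) were at most 3.04 CPM. Celf3 and Celf6 were at most 0.26 CPM.

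Levels were also divided by the exonic length over all annotated transcripts of a gene. In CTRL the highest members were Hnrnpa2b1 with 93.3, Srsf5 with 90.4, Hnrnph1 with 84.8, Prpf8 with 79.5 and Hnrnpab with 76.8 CPM per kb. In RbpjDEC the order was Srsf5 with 125, Hnrnpa2b1 with 115, Hnrnph1 with 112, Hnrnpab with 86.7 and Srsf2 with 86.5 CPM per kb, while Prpf8 was at 70.9. These are mean levels per group, and neighbours in this order were not tested against each other. The length includes retained introns and other non-coding isoforms. Of it, 63.0% in Hnrnpa2b1 and 0.228% in Prpf8 lay outside protein-coding transcripts. The order between genes therefore depends on the annotation too. Srsf1 was at 1.71 CPM per kb in CTRL, below every other tested SR gene.

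A list of 143 other splicing factors gave a similar picture. The log2 fold change was positive in 84 and negative in 59, with a median of 0.04. At the adjusted threshold 2 rose (1.4%) and 0 fell, and at an unadjusted p under 0.05 there were 30 higher (21.0%) and 4 lower (2.80%), beside the background of 8.88% and 8.62%. Jmjd6, a hydroxylase with U2AF2 among its substrates, was at 45.0, 64.9 and 55.5 CPM in CTRL and at 80.6, 94.1 and 84.3 CPM in RbpjDEC (log2 fold change 0.65 ± 0.12, edgeR adjusted p = 0.0426). It rose without overlap between the groups. Jmjd6 lies on the minus strand at chr11:116837432-116843449 (GRCm38), near Srsf2, and overlaps the start of Mettl23, whose span also covers Srsf2. Jmjd6 was not called without CTRL 1, CTRL 3, RbpjDEC 1 or RbpjDEC 2. Over the list 0 genes were called higher without CTRL 1, CTRL 3 or RbpjDEC 1, 1 without RbpjDEC 2 and 12 without CTRL 2.

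The members were then set beside their transcript annotation (GENCODE M21). Exonic length outside protein-coding transcripts, which comprises retained introns, NMD transcripts and other non-coding isoforms, exceeded 50% in 31 tested members. Their median log2 fold change was 0.26, and by the unadjusted p 19 were higher and 0 lower. Among the 57 members with up to 50% the median was -0.03, with 8 higher and 4 lower. Over the tested protein-coding genes the same division gave medians of 0.02 (1576 genes, 12.2% higher and 8.31% lower) and -0.03 (11911 genes, 7.45% higher and 11.8% lower). The division among the members was therefore in the same direction as, and wider than, that among protein-coding genes, and this difference was not tested. Members annotated with both retained-intron and NMD transcripts numbered 41, with a median of 0.22, 22 higher and 0 lower, while the other 47 had a median of -0.06, 5 higher and 4 lower. Among protein-coding genes with both kinds (2976 genes) 11.5% were higher and 7.73% lower, and among the other 10511 genes 7.02% and 12.4%, beside 53.7% and 0% of the 41 members and 10.6% and 8.51% of the 47. Clk1 has 77.9% of its exonic length outside its protein-coding transcript, with 7 retained-intron and 2 NMD transcripts of 13, and Srsf3 has 66.9%. Srsf2 has 32.3% with 2 NMD transcripts, Hnrnpa1 39.2% with 2, and Prpf8 0.228% with none. The counts are sums over all exons of a gene, so that coding and non-coding transcripts were not separated, and the part of unspliced or decaying RNA in these differences was not tested.

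**Figure D4:**
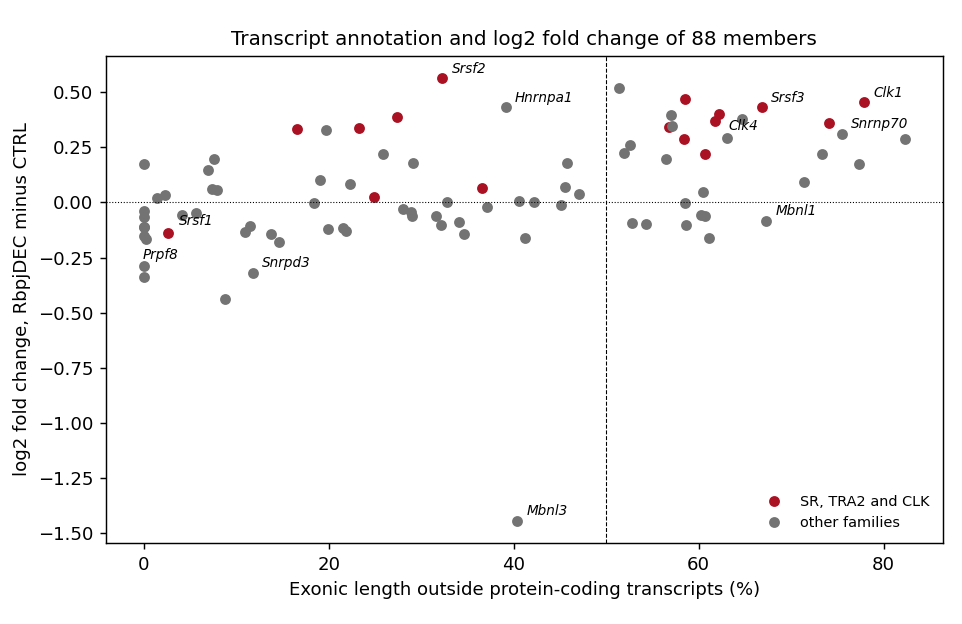
Log2 fold change (RbpjDEC minus CTRL) of the 88 tested members against the percentage of exonic length outside protein-coding transcripts in GENCODE M21, with a dashed line at 50%. Right of the line the median is 0.26 and left of it -0.03, and Srsf2 and Hnrnpa1, the called members, lie left of the line.

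RefSeq held promoter windows for 78 of the 91 members, 25 of them among the 27 members with a higher value at an unadjusted p under 0.05. TGGGAA was present in 20 of 78 members (25.6%), in 7 of the 25 (28%) and in 28.3% of the windows of all 27025 genes. The share among members was thus close to that of all genes. TGACG was present in 40 of 78 members (51.3%), in 17 of the 25 (68.0%) and in 23 of the other 53 (43.4%), beside 23.0% of all genes. The whole CRE, TGACGTCA, which contains TGACG, was present in 6 of 78 members (7.69%), beside 2.03% of all genes. It was present in 2 of the 25 (8.0%), Clk4 and Tra2a, and in 4 of the other 53 (7.55%). CCAAT was present in 38 of 78 (48.7%), in 13 of the 25 (52.0%) and in 25 of the other 53 (47.2%), beside 41.1% of all genes. All 4 were searched on both strands, and motifs of other factors that were looked at are not given here. A match is a stretch of letters and no evidence of binding, and base composition was not matched.

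Gene lists outside splicing had high values in the same libraries as the SR, TRA2 and CLK genes. Of 23 tested immediate-early genes, which respond within minutes to stimulation and tissue handling, 7 rose and 18 were higher at an unadjusted p under 0.05 (median log2 fold change 0.46), shares of 30.4% and 78.3% beside 0.575% and 8.88% of all tested genes, with Egr1 at 506, 585 and 528 CPM in CTRL and at 802, 945 and 815 CPM in RbpjDEC (0.66, edgeR adjusted p = 0.00649). Of 10 heat shock genes none was called and 7 (70%) were higher at an unadjusted p under 0.05 (median 0.46), with Hspa1a at 350, 519 and 464 CPM against 632, 802 and 704 CPM (0.68, edgeR adjusted p = 0.0738). Of 8 nuclear long noncoding RNA genes none was called, with 5 positive and 3 negative log2 fold changes (median 0.33). At an unadjusted p under 0.05, 3 (37.5%) were higher and 0 lower. Malat1, 1 of the 8, was at 17579, 29183 and 19372 CPM against 35634, 27618 and 37155 CPM (0.60, edgeR adjusted p = 0.189), with CTRL 2 above RbpjDEC 2. CTRL 2 was the highest CTRL library for 22 of 23 immediate-early, 9 of 10 heat shock and 7 of 8 nuclear long noncoding RNA genes, as it was for 15 of 16 SR, TRA2 and CLK genes, beside 34.6% of all tested genes. The SR, TRA2 and CLK genes, the immediate-early and the heat shock genes therefore had CTRL 2 as the highest CTRL library in common, while the order of CTRL 1 and CTRL 3 was not the same in each. CTRL 2 was also the highest CTRL library for 25 of the 27 members higher by the unadjusted p, including 5 of the 7 such hnRNP genes, and for 12 of the other 61 tested members. The part of cell handling or of the nuclear share of RNA in the values of splicing genes was not tested.

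**Figure D5:**
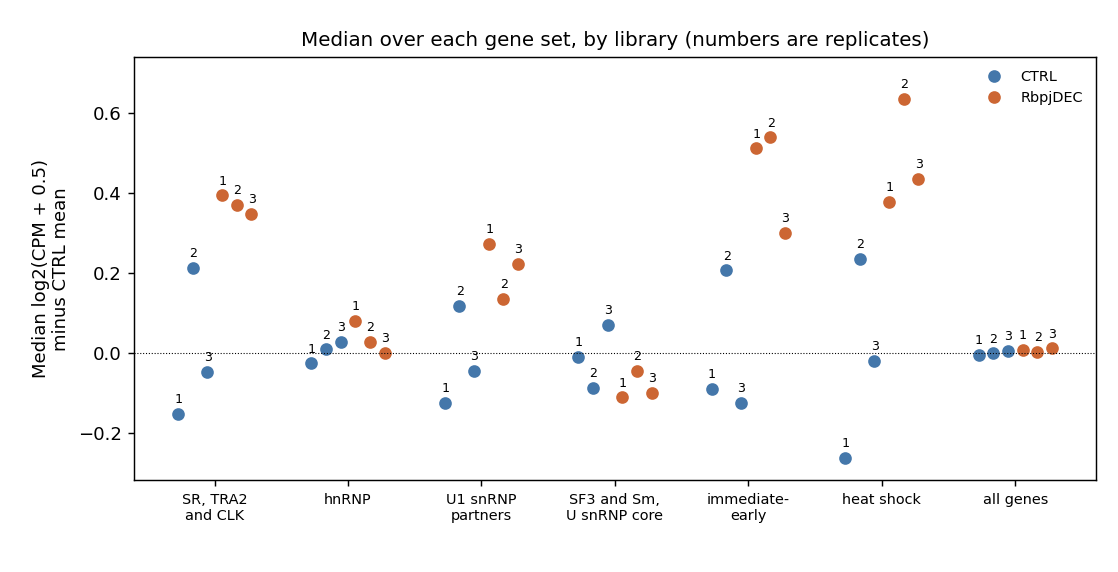
Median over the tested genes of each set, in each library, of log2(CPM + 0.5) minus the CTRL mean, with replicate numbers. The SR, TRA2 and CLK set is at 0.39, 0.37 and 0.35 in RbpjDEC and at 0.21 in CTRL 2, and the immediate-early and heat shock sets have CTRL 2 above the other CTRL libraries as well.

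Markers of other cells were mostly low beside the endothelial markers. Of 7 tested mural genes 3 (42.9%) fell, Acta2, Myh11 and Rgs5 (median of the list -1.16), beside 0.559% of all tested genes, and the summed level of the 8 listed genes was 79.8 to 104 CPM in CTRL and 31.7 to 52.3 CPM in RbpjDEC. Endothelial markers had a median of -0.18 with no call, 4 of 10 (40%) lower and 1 (10%) higher by the unadjusted p, beside 8.62% and 8.88% of all tested genes. The summed tubule markers were at 288 to 419 CPM in CTRL and at 121 to 440 CPM in RbpjDEC, RbpjDEC 3 being the highest. The 8 tubule genes did not move together, with 4 positive and 4 negative. Lrp2, Slc34a1, Miox and Kap of the proximal tubule were highest in RbpjDEC 3 (Lrp2 129 CPM, log2 fold change 1.27, edgeR adjusted p = 0.523), while Umod (-1.19, edgeR adjusted p = 0.279), Slc12a1 (-1.25, 0.357), Slc12a3 (-1.79, 0.388) and Aqp2 (-2.77, 0.159) of later segments were negative. The erythroid markers were at 6.5 to 6.8 and 0.9 to 5.5 CPM. The leukocyte markers summed to 15.7 to 18.3 CPM in CTRL and 23.9 to 29.3 CPM in RbpjDEC, where most of the sum was Cd68. Cd68, a lysosomal protein, rose (1.27, edgeR adjusted p = 0.0154). Over the 5 tested leukocyte genes the median was -1.25, with 2 positive and 3 negative, and 2 were lower by the unadjusted p. Negative were Csf1r (-1.57, edgeR adjusted p = 0.134), Ptprc (-1.44, 0.188) and Lyz2 (-1.25, 0.321). Ptprc, the defining CD45 gene, was at 1.16 to 3.92 and 0.54 to 1.6 CPM. Of the podocyte list, Nphs1 and Wt1 were at most 2.98 CPM, and Podxl, which ECs also express, was at 2399 to 3378 CPM. The part of these cells in the values of splicing genes was not tested.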

How the data were processed

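RNA of sorted kidney ECs from 3 CTRL and 3 RbpjDEC samples was analysed. The authors prepared libraries from 2 ng of total RNA (SMARTer Stranded Total RNA-Seq, Pico Input, 12 PCR cycles). They processed the reads with nf-core/rnaseq 1.4.2, for which the submitters' processing notes name Trim Galore 0.6.4, STAR 2.6.1d and featureCounts of Subread 1.6.4, on GRCm38.p6 with GENCODE M25. They deposited whole-number counts per gene without normalization. The strand setting and the treatment of reads matching several places are not given in the sources used here. The PCR reads carry no molecular identifiers here, so the floor of 3 counts covers counting error only.

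The deposited counts were scaled with TMM factors and fitted with edgeR 4.0.16 under R 4.3.3 (filterByExpr with a minimum count of 10, glmQLFit with robust estimation, glmQLFTest, genotype alone), and p-values were adjusted with the Benjamini-Hochberg method over 18438 genes at a threshold of 0.05. The SE of a fold change was derived from its F value. DESeq2 1.42.0, other scalings and filters, and fits without each library were alternatives. An exact permutation test of 3 against 3 cannot go below p = 0.1 and was not used. The labels do not say how many mice each sample holds, and p-values measure the spread between these samples.

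The labels do not say whether the replicate numbers pair the samples. Coordinates, exonic lengths and transcript types came from GENCODE M21, an earlier release on the same build. Promoter windows came from RefSeq.

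The members and lists were chosen with earlier results of these data known, and the grouping of SR, TRA2 and CLK, of SF3 with the Sm genes and by snRNP, as well as the motifs, after their values were seen. Genes named by rule were members past the threshold, the 12 smallest p-values, the most abundant and the most extreme member of each family, untested members, and called genes of the list of 143. Other members and the genes of the marker lists were named after their values were seen. Single results for some listed genes are not reported here.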

Additional observations from a re-analysis of the deposited data

How the results depend on the processing

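With 3 libraries a group, single libraries decided how many members passed the adjusted threshold. The number of members called higher, 2 with edgeR and TMM, was 6 with library size alone, 21 without the low-count filter, 14 with DESeq2, 12 with DESeq2 on all genes with a count (chosen after seeing the data), 1 without robust estimation, and 0 to 19 when each library was left out. The number called lower, 0, was 1 (Mbnl3) without the filter and with DESeq2. Of the list of other splicing factors, 2 were higher with edgeR, 4 with library size alone, 15 without the filter, 4 with either DESeq2 fit and 0 to 12 with a library left out, and 1 was lower without the filter and 1 with DESeq2. Members lower at an unadjusted p under 0.05 numbered 4, 2 with library size alone and 2 to 10 with a library left out. The median of the members moved to 0.0651 with library size alone, where the median of all genes was 0.05, and to between -0.0091 and 0.035 with a library left out. Over all genes, 106 higher and 103 lower calls became 159 and 82 with library size alone, and the total of 209 became 1436 without the filter, 944 and 584 with the DESeq2 fits, 344 with the block and 21 to 700 with a library left out.

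Same-numbered libraries deviated from their group means with correlations of 0.046, -0.021 and 0.017. With 3 libraries a group these values cannot settle whether the replicate numbers pair the samples. With a replicate block, 7 members were higher (Clk1, Hnrnpa1, Hnrnph1, Srsf2, Srsf3, Srsf7 and Tra2b), and 2 were lower at an unadjusted p under 0.05.

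The family medians of SR, TRA2, CLK, LUC7-like and U2AF genes were positive, and those of SF3, Sm and U snRNP core, U snRNP specific, CELF and MBNL genes negative, under all 14 alternatives. Those of hnRNP (-0.0088 to 0.07) and PRPF genes were not of 1 sign. Srsf2 had edgeR or DESeq2 adjusted p-values between 1.29e-10 and 0.105, and Hnrnpa1 between 5.17e-06 and 0.186. Of genes near 0, U2af2 reversed to 0.0317 with library size alone, and the range with a library left out was -0.0422 to 0.0121 (without CTRL 3) for U2af2, -0.265 to 0.0393 (without CTRL 2) for Srsf1, -0.0171 (without RbpjDEC 3) to 0.102 for Mbnl2 and -0.809 to 0.362 (without CTRL 1) for Celf5. The causes were not tested.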
